A study of Mus musculus with 8 samples.

Results

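The proteasome genes were taken from the table of read counts by name. Every gene whose symbol starts with Psma, Psmb, Psmc, Psmd, Psme, Psmf or Psmg was kept, except names with "-ps", if it had at least 50 counts summed over the 8 libraries. The rule found 48 of the 27594 genes, of which 47 code for proteasome subunits, activators, an inhibitor or assembly chaperones. The remaining gene, Psmc3ip, shares only the start of its name, since its product acts in meiotic recombination, and it was kept apart in all counts by class. Just inside the limit were Psmc3ip with 240 counts and Psmg3 with 337. Just outside were Psmb11, which codes for the thymic β5t subunit, with 10 counts, and Psma8, a testis form of an α subunit, with 3.

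The proteasome degrades proteins that carry ubiquitin chains. Its 20S core is a barrel of α rings, which gate the entrance, around β rings, in which the subunits β1 (Psmb6), β2 (Psmb7) and β5 (Psmb5) cut after acidic, basic and hydrophobic residues. In lymphocytes and under interferon these 3 are replaced in new particles by β1i (Psmb9), β2i (Psmb10) and β5i (Psmb8), which gives the immunoproteasome and favours peptides that fit MHC class I. The 19S regulatory particle binds, unfolds and feeds in the substrates through a base with a ring of ATPases (Psmc genes) and a lid with a deubiquitinase (Psmd14). The PA28 activator (Psme1 and Psme2) opens the core without ubiquitin, PI31 (Psmf1) binds the core as an inhibitor in vitro, and the chaperones PAC1 to PAC4 (Psmg1 to Psmg4) help to build its α ring.

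The libraries came from regulatory T (Treg) cells of C57BL/6 mice aged 6 to 8 weeks. All mice carried Foxp3-YFP-Cre, an allele that expresses a yellow fluorescent protein and the recombinase Cre from the Foxp3 locus, and therefore in Treg cells. Mice with this allele alone were the WT group, and in mice that also had Foxp1fl/fl the transcription factor gene Foxp1 was deleted wherever Cre acted. CD4+YFP+ cells from spleen and peripheral lymph nodes were sorted into resting Treg (rTreg) cells, low for CD44, and activated Treg (aTreg) cells, high for CD44. Each of the 4 groups had 2 libraries. The labels do not say how many animals went into a library. In the main fit, p-values measure the spread between these libraries that is left after the replicate number is fitted. In such bulk samples a change in the mix of cells and a change of RNA per cell cannot be told apart.

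Between 6373170 and 15268623 counts fell on genes in a library. In TMM CPM (CPM, the count relative to the size of the library, with sizes scaled by TMM, the trimmed mean of M-values), Foxp1 stood at 354 and 384 in WT rTreg cells and at 342 and 338 in Foxp1-deficient rTreg cells. The values were 235 and 230 in WT aTreg cells against 126 and 102 in Foxp1-deficient aTreg cells. Counts over the whole gene thus separated the genotypes in aTreg cells only, with log2 fold changes of -0.12 in rTreg (edgeR, Benjamini-Hochberg adjusted p = 0.460) and -1.03 in aTreg cells (adjusted p = 0.00194), and left the rTreg labels unchecked. All 6 Treg markers were present (a sum of 2788 to 4317 TMM CPM). The replicate number, used as a block, also separated the sexes: each replicate 2 library had at least 15098 counts of Xist and each replicate 1 library at most 3. The spread within a group thus includes a difference of sex. The block takes out the part shared by all groups, and sex and replicate number cannot be told apart. The WT replicate 2 libraries also stood apart at H2-K1, an MHC class I gene, with 842 TMM CPM in rTreg and 924 in aTreg cells against 3474 to 4055 in the other 6 libraries. Psmb8, Psmb9 and Tap1 lie in the MHC as well, and values without these libraries are given beside the immunoproteasome results.

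The 48 genes lay on 16 chromosomes of GRCm38 (mm10), with 10 of them on chromosome 11. Psmb5 spans chr14:54614119-54618022 on the minus strand, Psmb6 spans chr11:70525367-70527858 on the plus strand, and Psmb7 spans chr2:38588036-38644087 on the minus strand. Psmb9 (chr17:34181987-34187764, minus strand) and Psmb8 (chr17:34197721-34201454, plus strand) lie 9956 bp apart on chromosome 17, with the peptide transporter gene Tap1 between them. Psmb10 lies apart from them at chr8:105935735-105938444 on the minus strand. Exons of Psmb9 and Tap1 overlap by 212 bp on opposite strands, and the library kit named in the labels does not mark strand, so reads from this stretch cannot be assigned. Likewise, Psmb8 overlaps exons of Gm20496 by 498 bp, Psmb7 those of Nek6 by 405 bp, and Psmb5 contains the small RNA gene Mir686 (109 bp). In all, 15 of the 48 genes share exon bases with another gene. The 3 rows named as pseudogenes of Psmb5 or Psmb6 held 1 or 2 counts each. Psme2b, an intronless copy of Psme2 on chromosome 11, is 99.4% identical to it over 794 bp, with a longest identical run of 341 bp, so the counts of these 2 genes may be split and are uncertain.

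Promoter sequence from RefSeq (GRCm38.p6), 250 bases before to 50 bases after the start, was found for 41 of the 48 genes. Psmb1, Psmb2, Psmb7, Psmc3, Psmd3, Psmd7 and Psmg2 were not matched. Shown here are stretches upstream of the first exon for Psmb5, the member with the largest difference between genotypes, for Psmb6, another catalytic gene that holds the same motif, and for Psmc5, an ATPase gene of the base. Capitals mark TGACNNNGC, the core of the antioxidant response element bound by Nfe2l1 and Nfe2l2, in the first 2 sequences, and the site of nuclear respiratory factor 1 (GCGC, any 2 bases, GCGC) in the last.
Psmb5, chr14:54618023-54618122, minus strand: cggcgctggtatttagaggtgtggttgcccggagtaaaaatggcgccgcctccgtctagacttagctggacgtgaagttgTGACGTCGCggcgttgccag
Psmb6, chr11:70525257-70525356, plus strand: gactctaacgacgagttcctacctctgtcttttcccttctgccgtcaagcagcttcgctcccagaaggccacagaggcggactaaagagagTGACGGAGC
Psmc5, chr11:106256080-106256153, plus strand: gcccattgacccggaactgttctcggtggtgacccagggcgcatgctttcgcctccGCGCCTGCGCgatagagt
The match starts 47 bases before the RefSeq start in Psmb5, 9 bases before it in Psmb6 and 49 bases before it in Psmc5. Both strands were searched, and in these windows no match overlapped one of another motif.

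Over the 41 genes, TGACNNNGC was found in 6 (14.6%), against 14% of all 27025 genes with a window of that length. The share was 17.1% for the nuclear respiratory factor 1 site, found in 7 genes (Psma2, Psma3, Psma4, Psmc4, Psmc5, Psmd14 and Psmg1), against 7% of all genes. ACCGGAAG, a site of ETS factors, was found in 7 genes (17.1%, against 2.6%), and the core of the interferon-stimulated response element (GAAA, any 2 bases, GAAA) in 5 (12.2%, against 3.99%), of which Psme1 is the only gene of PA28αβ and none codes for an immunoproteasome subunit. CCAAT was found in 14 genes (34.1%, against 41.1%) and the E2F site TTTGGCGC in Psmb9 alone (2.44%, against 0.585%). The forkhead motif GTAAACA was in none of these windows and in those of 4.05% of all genes. These are matches of letters and say nothing of binding.

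All 48 genes passed the filter on low counts and were among the 14540 genes tested. Together they took 0.378% to 0.398% of the counts in the WT libraries and 0.415% to 0.449% in the Foxp1-deficient ones. Levels between genes were compared in TMM CPM per kb of gene length. On this scale the mean over 8 libraries ran from 1.21 for Psmg3 (the chaperone PAC3) to 110 for Psmb1 (the structural subunit β6), leaving aside Psme2b, at 125, whose counts are uncertain. The immunoproteasome genes stood above their constitutive partners, with 82.1 for Psmb10 against 10.6 for Psmb7, 60.2 for Psmb8 against 27.1 for Psmb5, and 50.6 for Psmb9 against 41.8 for Psmb6. Summed, the 3 immunoproteasome genes made up between 67.7% and 74.6% of the 6 catalytic genes in each of the 8 libraries. Levels between genes depend on the lengths recovered from the deposited FPKM values. The length was 1036 bp for Psmb1, 944 bp for Psma2 and 2736 bp for Psmb8, against 4595, 3673 and 3381 bp of merged GENCODE exons. The order of the genes is therefore uncertain.

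**Figure D1:**
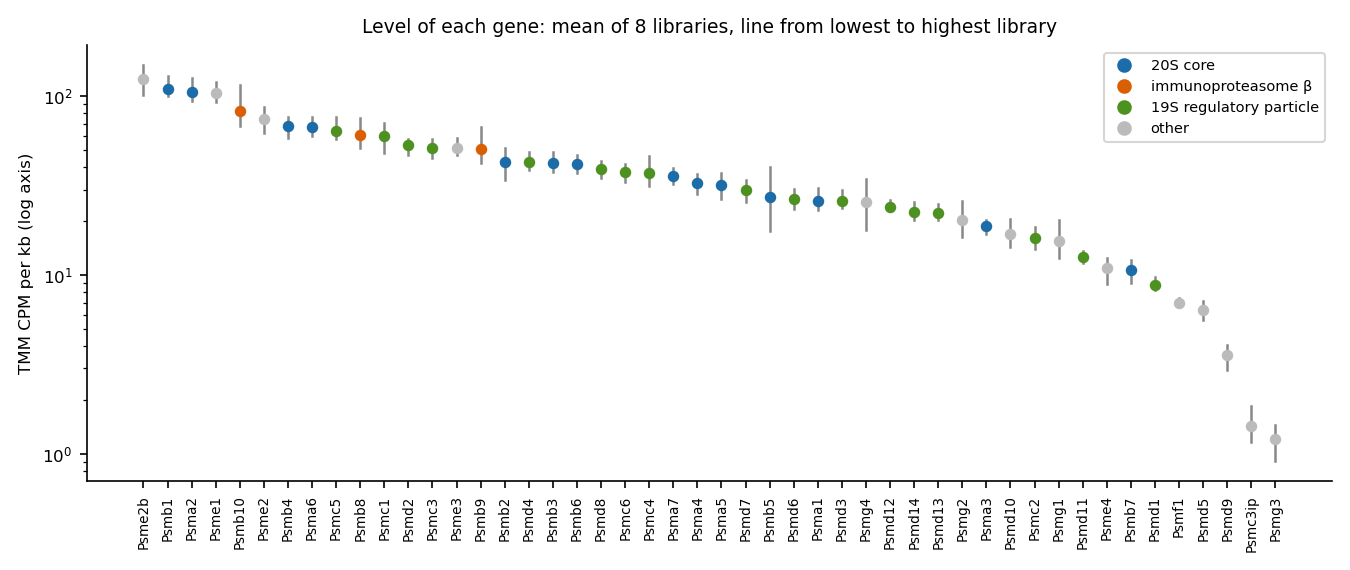
Level of each of the 48 genes in TMM CPM per kb (log axis), as the mean of 8 libraries (point) with a line from the lowest to the highest library, ordered by the mean and coloured by class. Psmb10, Psmb8 and Psmb9 lie among the 15 genes with the highest levels, while Psmb5, from 17.7 to 40.1, spans the widest range of the 20S core genes on this log axis. The order depends on the gene lengths used.

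The first comparison asked what deletion of Foxp1 does in rTreg cells. With Foxp1 deleted, 13 of the 48 genes were higher than in WT cells and none was lower. A gene was called when its p-value in the quasi-likelihood test of edgeR, adjusted over all genes by the Benjamini-Hochberg method, was under 0.05. This is 27.1% of the members, against 6.57% of all genes tested called higher and 5.45% called lower. The fold changes were small: 1 gene, Psmb5, also passed the 1.5-fold threshold of the study (2.08%, against 2.90% of all genes higher and 2.70% lower). The log2 fold change was above 0 in 45 of the 48 genes and in both replicate pairs in 43 of them (89.6%, against 34.7% of all genes). The median was 0.22 for the members and 0.0029 for all genes tested. At an unadjusted p under 0.05 stood 32 members (66.7%), all of them higher, against 28.5% of all genes in either direction.

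The count depended on the design. It was 1 in the fit without the replicate block, 7 with DESeq2 and 8 after the trend with gene length was removed. It was 0 without WT rTreg replicate 2 and without Foxp1-deficient rTreg replicate 2, 1 without WT rTreg replicate 1 and 3 without Foxp1-deficient rTreg replicate 1, fits in which 1 group is left with a single library.

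**Figure D2:**
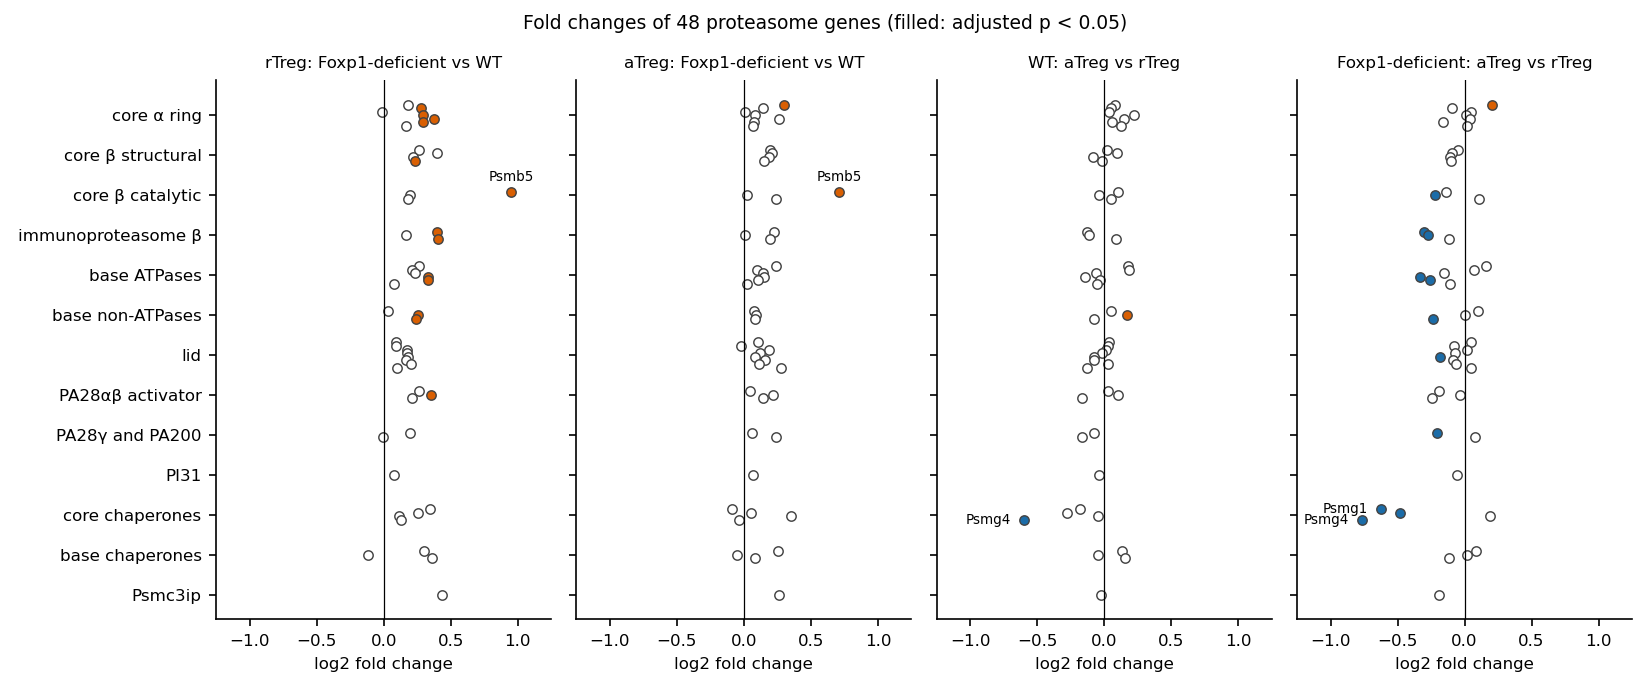
Log2 fold changes (x axis) of the 48 genes by class (y axis) in 4 comparisons, 1 point per gene. Filled points passed an adjusted p-value of 0.05 (orange higher, blue lower). In rTreg cells 45 of 48 points lie right of 0, and Psmb5 stands apart at 0.95.

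Among the 14 genes of the 20S core, 6 were higher in Foxp1-deficient rTreg cells (median log2 fold change 0.25), against 6.57% of all genes tested. The gene with the largest change was Psmb5, which codes for the β5 subunit with the chymotrypsin-like activity, the main target of proteasome inhibitors. It had 17.4 and 15.4 TMM CPM in WT and 28.1 and 35.0 in Foxp1-deficient rTreg libraries. The WT and Foxp1-deficient values did not overlap, and the counts behind them were 189 and 196 against 176 and 484, where 176 comes from the library with the fewest counts. The log2 fold change was 0.95 (SE 0.155, edgeR, Benjamini-Hochberg adjusted p = 0.00984), or 1.93-fold, with 0.69 in pair 1 and 1.18 in pair 2. Psmb5 stayed called in 12 of 14 alternative settings, including the fit without the replicate block (adjusted p = 0.0421). It was not called without WT rTreg replicate 2 (log2 fold change 0.76, adjusted p = 0.0987) or without Foxp1-deficient rTreg replicate 2 (0.78, adjusted p = 0.128).

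The other constitutive catalytic genes did not pass the test. Psmb6 had 79.3 and 73.6 TMM CPM in WT and 86.7 and 87.7 in Foxp1-deficient rTreg libraries, a log2 fold change of 0.20 (SE 0.069, edgeR, Benjamini-Hochberg adjusted p = 0.108). For Psmb7 the values were 35.6 and 31.0 against 37.4 and 37.5, a log2 fold change of 0.18 (SE 0.086, adjusted p = 0.218). In the α ring, which forms the gate, 4 of 7 genes were higher, against 6.57% of all genes. They were Psma5 (0.37, adjusted p = 0.0209), Psma4 (0.29, adjusted p = 0.0450), Psma6 (0.29, adjusted p = 0.0272) and Psma2 (0.28, adjusted p = 0.0330). Psma5, coding for α5, had 35.8 and 35.1 TMM CPM in WT against 46.4 and 45.6 in Foxp1-deficient libraries. Psma3, coding for α7, was at 75.3 and 69.2 against 65.7 and 76.3, so that its groups overlapped (log2 fold change -0.012). Of the 4 structural β genes, Psmb4 alone was called (0.23, adjusted p = 0.0485), although Psmb2 had a larger fold change of 0.40 (adjusted p = 0.0541). Psmb4 and Psma4 kept their calls in 1 of the 14 alternative settings each, Psma2 in 5, Psma6 in 7 and Psma5 in 8.

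**Figure D3:**
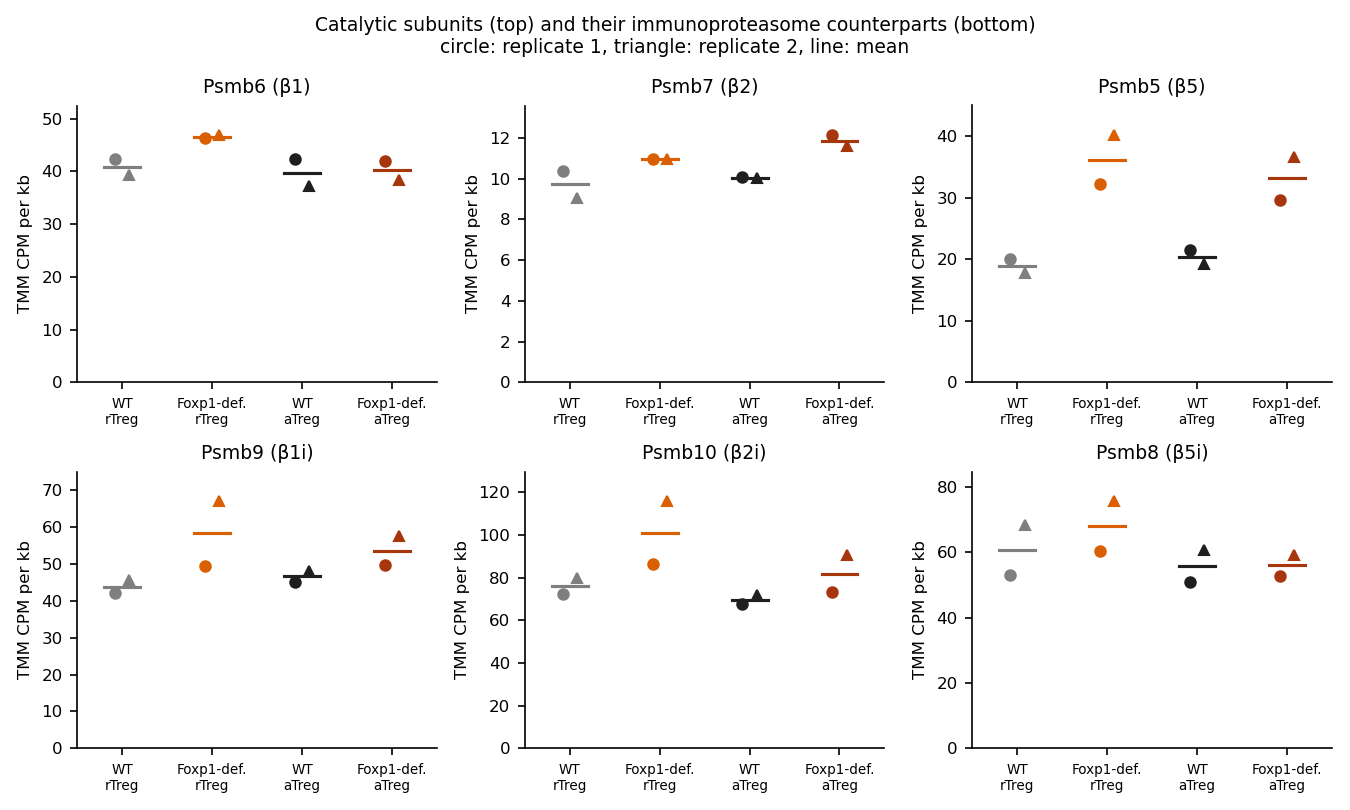
TMM CPM per kb (y axis, from 0) of the constitutive catalytic genes Psmb6, Psmb7 and Psmb5 (top) and of Psmb9, Psmb10 and Psmb8 (bottom) in the 4 groups (circle, replicate 1; triangle, replicate 2; line, mean). All 4 Foxp1-deficient libraries lie above all 4 WT libraries for Psmb5 (29.6 to 40.1 against 17.7 to 21.4), while the points of Psmb8 overlap. The rTreg and aTreg libraries of a genotype are not known to be independent.

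Of the immunoproteasome genes, Psmb9 and Psmb10 were higher in Foxp1-deficient rTreg cells and Psmb8 did not pass the test. Psmb9 had 154 and 167 TMM CPM in WT and 181 and 245 in Foxp1-deficient libraries, a log2 fold change of 0.40 (SE 0.088, edgeR, Benjamini-Hochberg adjusted p = 0.0263). Psmb10 had 123 and 136 against 147 and 197, a log2 fold change of 0.40 as well (SE 0.088, adjusted p = 0.0274). For both genes the groups did not overlap, but the difference was larger in pair 2 (0.56 and 0.54) than in pair 1 (0.23 and 0.25). Psmb8 ran from 145 to 187 in WT and from 165 to 207 in Foxp1-deficient libraries, so that the groups overlapped (log2 fold change 0.17, SE 0.066, adjusted p = 0.146). Without the replicate block, adjusted p was 0.228 for Psmb9 and 0.259 for Psmb10. Both also lost the call without WT rTreg replicate 1, WT rTreg replicate 2 or Foxp1-deficient rTreg replicate 2. Without WT rTreg replicate 2, a library with low H2-K1, the log2 fold changes of Psmb9, Psmb10 and Psmb8 were 0.32, 0.32 and 0.22.

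Antigen-presenting cells express these genes too, so the marker lists of other cells are given beside them. The 6 dendritic cell markers summed to 10.1 and 7.23 TMM CPM in WT rTreg and to 15.0 and 26.3 in Foxp1-deficient rTreg libraries. The 7 myeloid markers summed to 1.93 and 0.786 against 16.3 and 5.99. The sums for 5 B cell markers were 7.92 and 8.96 against 9.56 and 9.17. Cd74, the invariant chain of MHC class II, made up most of the dendritic cell list, with a log2 fold change of 1.30 (edgeR, Benjamini-Hochberg adjusted p = 0.0381). H2-Aa, another gene of MHC class II, had 1 and 1 counts in WT and 6 and 10 in Foxp1-deficient rTreg libraries. For H2-Ab1 the counts were 16 and 3 against 12 and 25. Itgax and Flt3 stayed at or below 0.433 and 0.319 TMM CPM in the 4 rTreg libraries, and Xcr1 had 0 and 1 counts in both groups. Counts this low cannot show that a cell type is absent. Of the 6 listed markers 1 had no more than 3 counts in any of the 8 libraries. The part of such cells in the immunoproteasome result was not tested.

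In the 19S regulatory particle 4 of 17 genes were called higher in Foxp1-deficient rTreg cells (median log2 fold change 0.18), against 6.57% of all genes. The values of all 17 lay above 0 in both pairs, against 34.7% of all genes. All 4 were grouped with the base. The ATPase genes Psmc4 (Rpt3) and Psmc5 (Rpt6) had log2 fold changes of 0.33 each (SE 0.066 for both, edgeR, Benjamini-Hochberg adjusted p = 0.0196 and 0.0188). Psmc4 was at 75.2 and 79.2 TMM CPM in WT against 100.1 and 95.04 in Foxp1-deficient libraries, and Psmc5 at 81.9 and 83.4 against 106 and 102, with no overlap. The scaffold subunit Psmd2 (Rpn1) stood at 189 and 193 against 229 and 226 (0.25, SE 0.055, adjusted p = 0.0263). The ubiquitin receptor Psmd4 (Rpn10) stood at 118 and 114 against 137 and 135 (0.24, SE 0.058, adjusted p = 0.0373). Psmc4, Psmc5 and Psmd2 were called in 9 of the 14 alternative settings each and Psmd4 in 3. None of the 8 lid genes was called in rTreg cells. Their fold changes ran from 0.090 to 0.20 (median 0.17), and 4 of 8 had an unadjusted p under 0.05, against 28.5% of all genes. Psmd14, the deubiquitinase that removes the chain before degradation, had 59.6 and 61.4 against 63.8 and 72.1 TMM CPM (0.17, adjusted p = 0.149). Whether base and lid differ from each other was not tested.

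Of the activators, Psme2 (PA28β) was higher in Foxp1-deficient rTreg cells, at 137 and 152 TMM CPM against 110 and 117 in WT (log2 fold change 0.35, SE 0.077, edgeR, Benjamini-Hochberg adjusted p = 0.0269). Its reads may be shared with Psme2b (0.21, adjusted p = 0.164), which limits both values. Psme2 was called in 9 of the 14 alternative settings, and not in the edgeR fit without the replicate block (adjusted p = 0.107). Psme1 (PA28α) had 213 and 217 against 252 and 265, groups that did not overlap, and a log2 fold change of 0.26 (adjusted p = 0.0629). Neither nuclear activator gene was called. Psme3 (PA28γ) was at 147 and 148 against 165 and 172 (0.20, adjusted p = 0.117). Psme4 (PA200), at 81.8 and 104 against 81.4 and 104, was nearly unchanged (-0.0076, adjusted p = 0.965). Psmf1, coding for the inhibitor PI31, was at 45.5 and 43.6 against 46.4 and 47.7 (0.080, adjusted p = 0.557).

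None of the 7 assembly chaperone genes was called between genotypes in rTreg cells, and 3 of the 7 reached an unadjusted p under 0.05, against 28.5% of all genes. Psmg1 (PAC1) was at 20.9 and 21.1 TMM CPM in WT and 27.3 and 26.4 in Foxp1-deficient libraries (log2 fold change 0.35, edgeR, Benjamini-Hochberg adjusted p = 0.0679). The base chaperone Psmd9 (p27) had a fold change of 0.36 (adjusted p = 0.0737), whereas Psmd5 (S5b) had the lowest value of all members, -0.12 (adjusted p = 0.540). Psmc3ip, which is no subunit, had 2.39 and 2.20 against 3.35 and 2.89 (0.44, SE 0.25, adjusted p = 0.311), on 21 to 40 counts per library.

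The ratio of each immunoproteasome gene to the constitutive gene it replaces was computed from the levels per kb. Psmb8 to Psmb5 (β5i to β5) was 2.66 and 3.86 in WT rTreg, 2.38 and 3.15 in WT aTreg, 1.88 and 1.89 in Foxp1-deficient rTreg and 1.78 and 1.62 in Foxp1-deficient aTreg libraries. All 4 Foxp1-deficient values were below all 4 WT values. Here and below, the 4 values of a genotype are 2 libraries of each subset and are not known to be independent. Psmb5, the divisor, was itself higher in the Foxp1-deficient libraries. The ratio of Psmb9 to Psmb6 (β1i to β1) was 0.995 and 1.16 in WT and 1.07 and 1.43 in Foxp1-deficient rTreg libraries, and 1.07 and 1.30 against 1.18 and 1.501 in aTreg libraries. The ranges overlapped, but within each of the 4 pairs of the same replicate number the Foxp1-deficient value was higher. Psmb10 to Psmb7 (β2i to β2) overlapped too, at 6.71 to 8.82 against 6.03 to 10.5, and its pairs differed in direction. Within the constitutive set, Psmb5 to Psmb6 was 0.450 to 0.519 in the WT and 0.695 to 0.952 in the Foxp1-deficient libraries, without overlap. Psme1 to Psme2 was 1.55 and 1.48 in WT and 1.47 and 1.39 in Foxp1-deficient rTreg libraries, and 1.47 and 1.40 against 1.26 and 1.30 in aTreg libraries, lower in Foxp1-deficient cells in every pair, with the limit that Psme2 may share reads with Psme2b. No test was run on ratios.

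**Figure D4:**
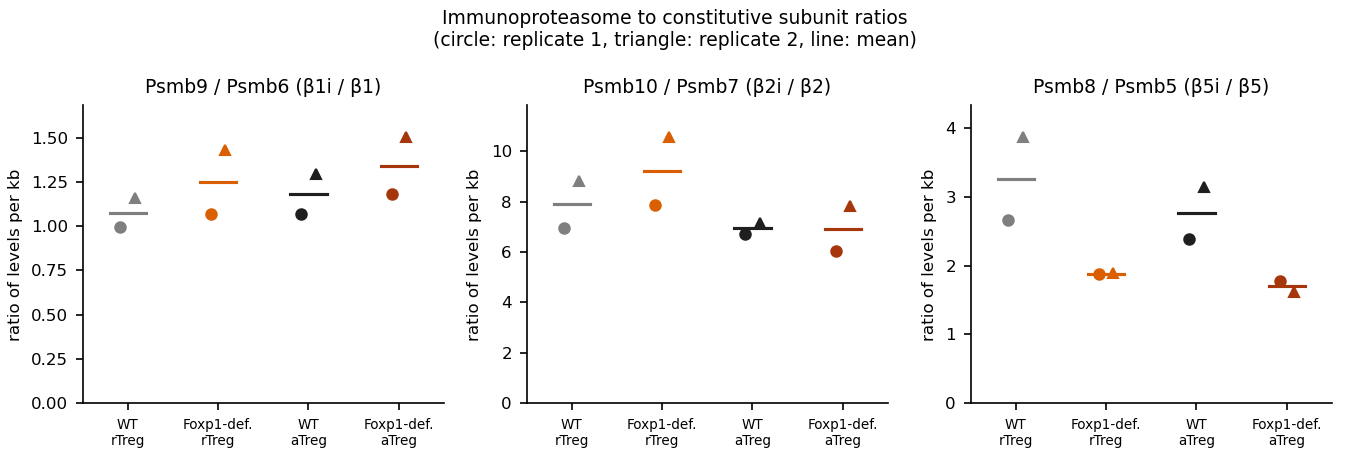
Ratio of levels per kb (y axis, from 0) of Psmb9 to Psmb6, Psmb10 to Psmb7 and Psmb8 to Psmb5 in the 4 groups (circle, replicate 1; triangle, replicate 2; line, mean). Of the 3, the ratio of Psmb8 to Psmb5 separates all WT from all Foxp1-deficient libraries, with means of 3.26 and 2.77 in WT rTreg and aTreg cells against 1.88 and 1.70 in Foxp1-deficient cells. The rTreg and aTreg libraries of a genotype are not known to be independent.

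Levels per kb were also summed over each class and divided by the mean of the WT rTreg libraries. For all 47 proteasome genes the sum was 1.14 and 1.24 in Foxp1-deficient rTreg, 1.00 and 0.982 in WT aTreg and 1.08 and 1.11 in Foxp1-deficient aTreg libraries. In Foxp1-deficient rTreg libraries the constitutive catalytic genes were at 1.29 and 1.41, and the immunoproteasome genes at 1.09 and 1.43, the widest distance between replicates. The 19S particle was at 1.14 and 1.17, with the smallest distance between replicates. Core chaperones went another way: their sum was 1.13 and 1.19 in Foxp1-deficient rTreg libraries but 0.763 and 0.771 in WT aTreg and 0.793 and 0.729 in Foxp1-deficient aTreg libraries.

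**Figure D5:**
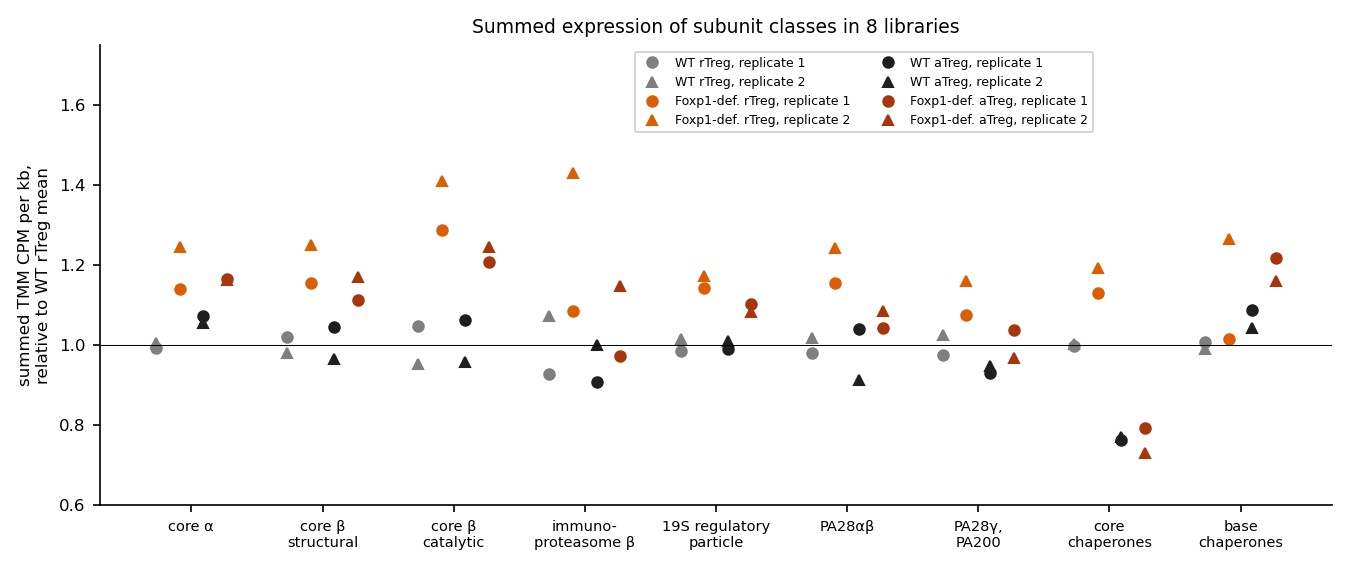
Summed TMM CPM per kb of each class relative to the mean of the 2 WT rTreg libraries (y axis, starting at 0.6), 1 point per library. Foxp1-deficient rTreg libraries (orange) lie above both WT rTreg libraries (grey) in every class shown, and the core chaperones of all 4 aTreg libraries lie below 0.8.

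In aTreg cells, 2 of the 48 genes were higher in Foxp1-deficient than in WT cells and none was lower (4.17%, against 4.11% of all genes tested called higher and 2.77% called lower), a share at the background. At an unadjusted p under 0.05 stood 14 members (29.2%), all of them higher, against 23.3% of all genes in either direction. The log2 fold change was above 0 in 44 of 48 genes, with a median of 0.12 against 0.0018 for all genes. Psmb5 had 18.7 and 16.8 TMM CPM in WT and 25.8 and 31.8 in Foxp1-deficient aTreg libraries, again without overlap. Its log2 fold change was 0.71 (SE 0.151, edgeR, Benjamini-Hochberg adjusted p = 0.0346), with 0.47 in pair 1 and 0.92 in pair 2, and it was the member past 1.5-fold (2.08%, against 2.37% of all genes higher and 1.66% lower). Psma1 (α6) had 73.5 and 71.4 against 89.9 and 88.8, a log2 fold change of 0.30 (SE 0.064, adjusted p = 0.0335).

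Both calls in aTreg cells rested on the design. Without the replicate block adjusted p was 0.142 for Psmb5 and 0.172 for Psma1 (edgeR, Benjamini-Hochberg), and the 1.5-fold call of Psmb5 was lost also when WT aTreg replicate 2, either Foxp1-deficient rTreg replicate or either Foxp1-deficient aTreg replicate was left out. Over all 14 settings the log2 fold change of Psmb5 stayed between 0.54 and 0.86.

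The immunoproteasome genes were not called in aTreg cells. Psmb9 was at 165 and 176 TMM CPM in WT against 182 and 211 in Foxp1-deficient libraries (log2 fold change 0.20, SE 0.087, edgeR, Benjamini-Hochberg adjusted p = 0.226). Psmb10 was at 115 and 122 against 125 and 154 (0.23, SE 0.088, adjusted p = 0.176). Psmb8 was at 140 and 166 against 144 and 162, fully overlapping (0.0087, adjusted p = 0.956). Of the constitutive genes, Psmb7 had 34.4 and 34.2 against 41.5 and 39.6 (0.24, adjusted p = 0.139) and Psmb6 had 79.2 and 69.6 against 78.6 and 71.9 (0.019, adjusted p = 0.898). Psme1, Psme2, Psme3, Psme4 and Psmf1 had fold changes of 0.047, 0.21, 0.063, 0.24 and 0.065, none of them called. In these groups the dendritic cell markers summed to 49.9 and 42.2 TMM CPM in WT and 80.9 and 114 in Foxp1-deficient libraries. The myeloid markers summed to 5.38 and 4.23 against 28.4 and 4.46, so that Foxp1-deficient aTreg replicate 1 stood apart. Their part in these values was not tested. Without WT aTreg replicate 2, a library with low H2-K1, the log2 fold changes of Psmb9, Psmb10 and Psmb8 were 0.12, 0.12 and -0.011.

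The step from rTreg to aTreg cells in WT mice left the proteasome genes close to their starting level. With 1 gene higher and 1 lower (2.08% each), the members stood below all genes tested, of which 18.2% were called higher and 13.6% lower. The median log2 fold change was -0.0017 and 24 of 48 genes lay above 0. Psmd2 (Rpn1) was higher, at 216 and 213 against 189 and 193 TMM CPM (0.17, SE 0.055, edgeR, Benjamini-Hochberg adjusted p = 0.0497), a call that held in 1 of 14 alternative settings. Psmg4 (PAC4) was lower, at 11.7 and 10.4 against 17.2 and 16.2 (-0.60, SE 0.14, adjusted p = 0.0132). It kept its call without the replicate block (adjusted p = 0.0377), and lost it without either WT rTreg library or without WT aTreg replicate 2, with fold changes of -0.59, -0.59 and -0.53. Neither gene passed the 2-fold threshold used between subsets, which 9.50% of all genes passed upwards and 2.83% downwards.

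Catalytic and immunoproteasome genes kept within -0.13 and 0.10 on the log2 scale between WT rTreg and aTreg cells, with none called. For Psmb5 the fold change was 0.10 (SE 0.16), for Psmb6 -0.043, for Psmb7 0.052, for Psmb9 0.090, for Psmb10 -0.13 and for Psmb8 -0.12. The SEs of the last 5 lay between 0.066 and 0.0885. Psme1 and Psme2 were at 0.028 and 0.10, Psme3 and Psme4 at -0.075 and -0.17, and Psmf1 at -0.038, again without a call.

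Between Foxp1-deficient rTreg and aTreg cells 1 gene was higher and 11 were lower in aTreg cells (2.08% and 22.9%, against 21.9% and 18.2% of all genes tested). This comparison shares the Foxp1-deficient rTreg libraries with the first one, where 13 members were higher. The lower genes were led by the core chaperones. Psmg4 stood at 17.2 and 18.9 TMM CPM in rTreg and 11.6 and 9.92 in aTreg libraries (-0.77, SE 0.14, edgeR, Benjamini-Hochberg adjusted p = 0.00339). Psmg1 stood at 27.3 and 26.4 against 16.7 and 18.0 (-0.62, SE 0.10, adjusted p = 0.00233) and Psmg2 at 25.8 and 27.4 against 20.4 and 17.8 (-0.48, SE 0.12, adjusted p = 0.0159). Psmg1 and Psmg4 were called in all 14 alternative settings. Psmg3, the fourth chaperone of the set, was at 3.03 and 3.97 against 3.94 and 4.17 (0.19, adjusted p = 0.601), on at most 58 counts per library.

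The other lower members were Psmc4 (-0.33, adjusted p = 0.00580), Psmc5 (-0.26), Psmd4 (-0.23) and Psmd3 (-0.18, the lid subunit Rpn3) of the 19S particle, the immunoproteasome genes Psmb10 (-0.30) and Psmb8 (-0.27, adjusted p = 0.0132), the β1 gene Psmb6 (-0.22, adjusted p = 0.0363) and the activator Psme3 (-0.21, adjusted p = 0.0495), by the same edgeR test and Benjamini-Hochberg adjustment. Psma1 was higher (0.20, adjusted p = 0.0378). None passed 2-fold in either direction (background 11.3% and 4.39%). Psmb5 (-0.14), Psmb7 (0.11) and Psmb9 (-0.12) were not called, nor were Psme1 (-0.19), Psme2 (-0.034), Psme4 (0.078) and Psmf1 (-0.053). Psmc4 kept its call in 13 of the 14 alternative settings, Psmb10 and Psmb8 in 10 each, Psmd4 in 9 and Psmc5 in 8. Psmb6 kept it in 6, Psma1 in 5, Psme3 in 3 and Psmd3 in 2. Without the replicate block 4 members (Psmg1, Psmg2, Psmg4 and Psmc4) were lower and none higher. The lower count was 4 without Foxp1-deficient rTreg replicate 1 and 3 without Foxp1-deficient rTreg replicate 2 or Foxp1-deficient aTreg replicate 2.

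Whether the effect of genotype differed between subsets was tested directly as an interaction term. No member was called by edgeR, DESeq2 or limma-voom (0 of 48, against 0.186% of all genes called higher and 0.144% lower), and 4 members (8.33%) had an unadjusted p under 0.05 in edgeR's test, a smaller share than the 12.8% of all genes. These were Psmg1 (a difference of log2 fold changes, aTreg minus rTreg, of -0.44), Psmc5 (-0.23), Psma6 (-0.22) and Psme4 (0.24). For Psmb5 the difference was -0.24 with a standard error of 0.22 (edgeR, Benjamini-Hochberg adjusted p = 0.712). The larger number of calls in rTreg cells is therefore not shown to be a difference between the subsets.

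Genes that work with the proteasome were followed in 5 lists. In Foxp1-deficient against WT rTreg cells, against the background of 6.57% of all genes higher and 5.45% lower, 2 of 16 proteasome partners were higher and none lower: the deubiquitinase Uchl5 (log2 fold change 0.36, edgeR, Benjamini-Hochberg adjusted p = 0.0403) and the shuttle receptor Rad23b (0.27, adjusted p = 0.0359). Their median was 0.072. Pomp, which chaperones the maturing core, had a fold change of 0.30 (adjusted p = 0.0745). In the list of ubiquitin genes, 2 of 10 were higher, the segregase Vcp (0.32, adjusted p = 0.0177) and the activating enzyme Uba1 (0.23, adjusted p = 0.0246), and none was lower.

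Among 10 regulators of proteasome genes none was called in either genotype comparison. Of these, 2 had an unadjusted p under 0.05 in rTreg cells, against 28.5% of all genes, and 3 in aTreg cells, against 23.3%. Above 0 lay 2 of the 10 log2 fold changes in rTreg and 3 in aTreg cells, against 50.4% and 50.3% of all genes. Nfe2l1, which drives proteasome genes when degradation is blocked, was at 134 and 143 TMM CPM in WT and 126 and 132 in Foxp1-deficient rTreg libraries (-0.10, edgeR, Benjamini-Hochberg adjusted p = 0.293). Nfe2l2 was at 42.6 and 51.1 against 40.3 and 53.8, with overlap (-0.00042). In WT aTreg against rTreg cells, by contrast, Nfe2l1 was higher (0.30, adjusted p = 0.00650) and Nfe2l2 lower (-0.49, adjusted p = 0.00366).

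In Foxp1-deficient against WT rTreg cells, 6.57% of all genes were higher and 5.45% lower. Of 12 genes for class I antigen processing, 1 was higher, the chaperone Calr (0.34, edgeR, Benjamini-Hochberg adjusted p = 0.0360). All 12 had a fold change above 0 (median 0.21), against 50.4% of all genes tested. The largest value in the list, 1.2 for H2-K1 (adjusted p = 0.209), comes from the low WT replicate 2 library: it was 0.21 in pair 1 and 2.23 in pair 2. Tap1, which shares exon bases with Psmb9, was at 570 and 522 against 614 and 687 TMM CPM (0.25, adjusted p = 0.173). Of 14 interferon response genes, Irf8 (0.97, adjusted p = 0.0031) and Igtp (0.66, adjusted p = 0.0371) were higher and Gbp3 (-0.90, adjusted p = 0.0212) was lower. Irf1, which drives the immunoproteasome genes under interferon, had a fold change of -0.0041. Over the 14 interferon genes, 11 lay above 0 (median 0.20), against 50.4% of all genes. Their median was -0.068 in pair 1 and 0.44 in pair 2. Of the 14, 6 (42.9%) had an unadjusted p under 0.05 in edgeR's test, 5 of them higher, against 28.5% of all genes. The part of interferon in the immunoproteasome result was not tested. In aTreg cells, where 4.11% of all genes were higher and 2.77% lower, the calls between genotypes were Rad23b (0.35, adjusted p = 0.0209) among the partners and the peptidase Erap1 (0.36, adjusted p = 0.0161) among the class I genes, and none in the other 3 lists.

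Between WT rTreg and aTreg cells the partners had 2 higher and 2 lower genes of 16, the ubiquitin genes 2 and 1 of 10, the regulators 2 and 2 of 10, the class I genes 2 and 0 of 12 and the interferon genes 1 and 3 of 14. In Foxp1-deficient cells the same step gave 3 and 4, 1 and 2, 3 and 2, 1 and 0, and 1 and 5. Of all genes, 18.2% were higher and 13.6% lower in WT and 21.9% and 18.2% in Foxp1-deficient cells, and with lists this short nothing particular to them is read from the counts. The largest of these changes were Irf8 in WT (1.24) and Gbp3 in Foxp1-deficient cells (1.27, edgeR, Benjamini-Hochberg adjusted p = 0.0011), both higher in aTreg cells.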

How the data were processed

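RNA sequencing data of 8 libraries (4 groups, 2 replicates each) were used. The deposited counts are whole reads per Ensembl gene. The authors trimmed paired-end reads, removed duplicates with Picard and counted with HTSeq, and the submitters' processing notes name HISAT2 2.0.5 and mm10. The strand setting is not given in the sources used here. The authors also deposited FPKM values, used only to recover each gene's length (relative spread across libraries at most 0.00015).

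For the tests, edgeR 4.0.16 was run under R 4.3.3 (glmQLFit and glmQLFTest, TMM scaling, filterByExpr with a minimum count of 10, 14540 genes) as 1 model over all 8 libraries, with group means and a block for the replicate number. Genes were called at a Benjamini-Hochberg adjusted p under 0.05 over all genes, and the study's fold thresholds (1.5 between genotypes, 2 between subsets) were counted beside it. The block follows the authors' paired analysis and the numbers in the sample titles. Same-numbered libraries deviated from their group means together (correlations across genes 0.355 to 0.597 over the 6 pairs of groups). The model has 3 residual degrees of freedom. A level of 3 counts, the floor of depth, was 0.196 to 0.471 CPM, and it covers counting error only.

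Alternatives were no block, limma-voom (limma 3.58.1), DESeq2 1.42.0, scaling by median-of-ratios, testing without the low-count filter, removal of the length trend, and leaving out each library. The code was tested on simulated counts. The members, classes, gene lists and motifs were chosen with earlier results of these data known. Genes named with values are the catalytic and immunoproteasome genes, Psme1 to Psme4, Psmf1, Psmc3ip, the called member of each class with the largest change, up to 4 called genes per list, and, chosen after their values were seen, other called or contrasting members. Positions are from GENCODE M21 (GRCm38), in which 37 of 48 lengths equal the merged exons. The sort used a further surface marker, and that marker and the sum of the gate genes are not reported here.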

Additional observations from a re-analysis of the deposited data

How the results depend on the processing

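The direction of the genotype effect on Psmb5 held in every alternative, from 0.76 to 1.11 in rTreg and from 0.54 to 0.86 in aTreg cells (log2). Counts of called members moved more. For members higher in Foxp1-deficient rTreg cells (13), the fit without the replicate block gave 1, DESeq2 gave 7 and removal of the length trend gave 8, while limma-voom gave 14, median-of-ratios size factors 11 and no filter 12. Leaving out single libraries gave 0 to 12 members, and 0 to 1 past 1.5-fold. For members higher in Foxp1-deficient aTreg cells (2), the counts were 0 without the replicate block, with 0 past 1.5-fold, 1 with DESeq2, and 0 to 1 (past 1.5-fold 0 to 1) without single libraries. All genes called higher went from 956 to 181 in rTreg and from 598 to 46 in aTreg cells without the replicate block. For WT aTreg against rTreg cells, the higher count (1) was 0 without the replicate block, with DESeq2, with median-of-ratios size factors, without the filter and without the length trend, and 0 to 1 without single libraries, and the lower count (1) was 0 to 2. For Foxp1-deficient aTreg against rTreg cells, the higher count (1) was 0 without the replicate block, with limma-voom and with DESeq2, and 0 to 1 without single libraries. The lower count (11) was 4 without the replicate block, 7 with DESeq2, 6 without the filter and 3 to 11 without single libraries. The cause of these shifts was not tested.

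Among the catalytic, immunoproteasome and called members, signs turned only for uncalled values. In the main fit these log2 fold changes lay between -0.14 and 0.10. Signs of the other members are not given. With the length trend removed, Psmb8 between genotypes in aTreg cells was -0.0067 and Psmb5 between Foxp1-deficient subsets was 0.023. Without single libraries, genotype effects in aTreg cells ranged from -0.039 to 0.080 for Psmb6 and from -0.061 to 0.080 for Psmb8. Between WT subsets the range was -0.058 to 0.29 for Psmb5, -0.027 to 0.15 for Psmb7 and -0.10 to 0.017 for Psmb6, between Foxp1-deficient subsets -0.30 to 0.040 for Psmb5 and -0.24 to 0.042 for Psmb9, and for the interaction -0.019 to 0.15 for Psmb7. Depth limits Psmg3 and Psmc3ip most, with 19 to 58 and 21 to 40 counts per library.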
